A study of Homo sapiens with 6 samples.

Results

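The p53 target genes described here are 32 genes that are widely known to be activated by p53, out of 20033 protein-coding genes of GENCODE release 44. They were chosen by name. For each gene, the window was the gene body with 10000 bp added on either side, and the start site was the first base of the Ensembl canonical transcript. A start site was called open in a library when an open region of that library covered it. The 32 windows did not overlap one another, and 5 members had a protein-coding start on the opposite strand within 1000 bp.

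Open chromatin was mapped by ATAC-seq, in which Tn5 transposase cuts and tags accessible DNA, in MCF10A, an established and non-tumorigenic line of human mammary epithelial cells that the labels give as wild type. All cells had been grown with EGF, hydrocortisone, cholera toxin and insulin and were first kept for 30 min in a phosphate-free buffered salt solution. For a further 30 min, control cells had the salt solution alone, TPA cells had 50 μM tris(2-pyridylmethyl)amine, a Zn2+ chelator, and ZnCl2 cells had 30 μM ZnCl2. There were 2 libraries per group and 6 in all, from 1 cell line, and values are given below for replicate 1 and then replicate 2. The study calls the replicates biological in one place and technical in another, so the tests measure the spread between libraries only.

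p53 is a transcription factor that is stabilized by DNA damage and other stress and that holds a zinc ion in its DNA-binding domain. It binds as a tetramer to a pair of adjacent decamers, each with a core of C, A or T, A or T, and G, and it activates genes that stop the cell cycle, repair DNA, adjust metabolism or kill the cell. It also activates MDM2, PPM1D and CCNG1, whose products restrain p53. The promoter of CDKN1A is known to hold paused RNA polymerase before p53 is activated.

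The deposited lists held 25031 and 44641 open regions for control, 35902 and 41376 for TPA and 38069 and 18887 for ZnCl2 on the assembled chromosomes. Each region carried a whole-number score of at least 30, and read depth is unknown. The score was used as a list percentile, the percentage of regions in the same list with a lower score. This value depends on which other regions are in the list, and the lists differed in length. A gene percentile is therefore given as well. It is the percentage of the 20033 genes whose start site scored lower in that library, with genes that had no region placed lowest. Of 11 mammary epithelial markers, 4 were open at the start in all 6 libraries, 6 in some and 1, TP63 at its canonical start, in none. Markers of blood, endothelium, muscle, neural crest and liver were open in 0 of 8 cases.

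A search of both strands within 3000 bp of each start, with the cores fixed and at most 2 mismatches outside them, found a p53 consensus site in 12 of the 32 genes (37.5%), against 572 of all 20033 genes (2.86%). The members are known p53 targets, so their higher share of sites is no independent result. Of the 12, 8 (25% of members) had a site that lay wholly inside an open region in at least 1 library. The same held for 181 of the 572 (0.904% of all genes). In all 6 libraries it held for 5 of the 12 (15.6% of members) and 54 of the 572 (0.27% of all genes). A match is a description of the sequence, not a measurement of binding. Sites with bases between the decamers, or farther than 3000 bp from the start, were not looked for. A gene with no match is thus not shown to lack a p53 site. The sites below are shown because they place the open regions of the named genes relative to the p53 consensus. They are read from hg38 along the strand of the gene, from 5′ to 3′, with the cores in capitals.

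ZMAT3, chr3:179070188-179070207, no mismatch, intron 1: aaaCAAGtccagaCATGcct
PLK2, chr5:58462274-58462293, no mismatch, upstream: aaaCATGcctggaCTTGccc
GADD45A, chr1:67686775-67686794, 1 mismatch, intron 3: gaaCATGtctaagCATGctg
CCNG1, chr5:163437926-163437945, 1 mismatch, intron 1: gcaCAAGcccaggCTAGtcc
CCNG1, chr5:163439946-163439965, 2 mismatches, intron 2: gacCTAGtcaagaCTTGctt
CDKN1A, chr6:36676449-36676468, 2 mismatches, upstream: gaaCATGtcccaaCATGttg
FAS, chr10:88991309-88991328, 2 mismatches, intron 1: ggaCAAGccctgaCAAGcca
AEN, chr15:88621306-88621325, 2 mismatches, upstream: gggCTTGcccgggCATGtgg
SPATA18, chr4:52051957-52051976, 2 mismatches, intron 1: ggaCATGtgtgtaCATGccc

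The sites of GADD45A, FAS, AEN and SPATA18 and the first of the pair in CCNG1 were inside an open region in all 6 libraries. AEN had its site 24 bp upstream of the start, FAS had its site 521 bp downstream and GADD45A 1584 bp downstream. Closed in every library were the sites of ZMAT3 and PLK2, although these are the only members with no mismatch, which only 16 of all genes (0.0799%) have. In control replicate 2 the region over the ZMAT3 start ended inside the site, so that the site was not covered whole. BTG2 and EDA2R also had a site with 2 mismatches that was open in no library. RRM2B and TNFRSF10B each held a site in intron 1 that was open in 5 libraries, all but control replicate 1 for RRM2B and all but ZnCl2 replicate 2 for TNFRSF10B. In ZnCl2 replicate 1 the RRM2B site lay outside the start region, in a separate region of 760 bp at list percentile 3.52.

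Of the 13 sites of the members, only that of CDKN1A separated both TPA libraries from both control libraries. It was open in both TPA libraries and in ZnCl2 replicate 2, and in neither control library nor ZnCl2 replicate 1. Of the 583 gene and site pairs of all protein-coding genes, 4 (0.686%) were open in both TPA libraries and neither control library, and 0 (0%) were open in both ZnCl2 libraries and neither control library. The site of CDKN1A is 1 of these 4, and with 2 libraries per group no test was run on it.

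CDKN1A encodes p21, the inhibitor of cyclin-dependent kinases that stops the cell cycle. Its canonical start lies at chr6:36678714, 2255 bp downstream of the center of the site, and the outermost start of the gene record falls inside the site. The region over the canonical start reached from 1553 bp upstream to 966 bp downstream of it in control replicate 1 and from 563 to 2776 bp in control replicate 2. With TPA it reached from 2523 bp upstream to 2516 bp downstream and from 2563 to 2506 bp, which takes in the site. ZnCl2 regions reached from 1863 bp upstream to 2856 bp downstream in replicate 1 and from 3233 to 3236 bp in replicate 2. The region thus measured 2520 and 3340 bp in control, 5040 and 5070 bp in the TPA libraries and 4720 and 6470 bp in the ZnCl2 libraries, so every treated region was wider than both control regions. The amplicon that the study used for p53 ChIP-qPCR at CDKN1A, chr6:36676412-36676502, holds the site and was open in the same 3 libraries.

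**Figure D1:**
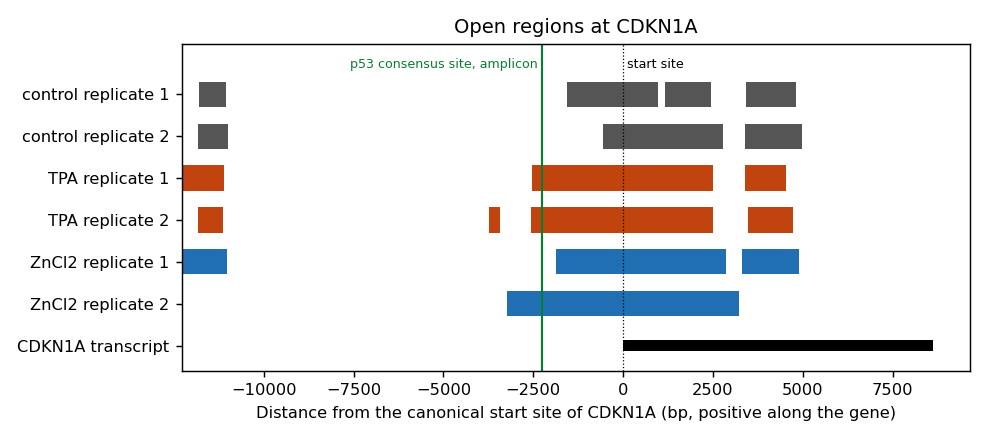
Open regions around CDKN1A in each library, drawn as bars by distance in bp from the canonical start site, with the p53 consensus site as a green line and the transcript in black. The bars that cover the start reach the site in TPA replicates 1 and 2 and in ZnCl2 replicate 2, and end short of it in both control libraries and in ZnCl2 replicate 1.

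A wider start region with TPA was uncommon. Of the 27 members that were open at the start in all 6 libraries, CDKN1A and BBC3 had both TPA regions wider than both control regions, where 1.94% of the 8613 genes open in all 6 libraries did. BBC3 encodes PUMA, a BH3-only protein that triggers cell death at the mitochondrion. Its start region measured 1670 and 8220 bp in control, 17990 and 18560 bp in the TPA libraries and 2260 and 3520 bp in the ZnCl2 libraries. With TPA the region ran from 4591 and 4601 bp upstream of the start to beyond the end of the gene, whereas in control replicate 1 and both ZnCl2 libraries a separate region lay inside the gene. DDB2 and CCNG1 were narrower with TPA (16.7% of all genes). In TPA replicate 2 the DDB2 start region of 1740 bp was followed by a separate open region of 28420 bp. That region began 997 bp downstream of the start, ran beyond the end of the gene and was listed in no other library. With ZnCl2, CDKN1A, FDXR and POLH were wider (10.9%) and 0 members were narrower (2.52%). Fewer values need to be separate when a library of either group compared is left out. Without control replicate 2, 19 members were wider with TPA (56% of all genes) and 22 with ZnCl2 (81.9%), and without control replicate 1, 22 were narrower with TPA (87.4%) and 17 with ZnCl2 (55.4%). Without ZnCl2 replicate 1, 10 members were wider with ZnCl2 (37.3%), and without ZnCl2 replicate 2, 5 of 30 were narrower (14.4%). Without TPA replicate 1, 4 were wider (8.82%) and 5 narrower (27.3%) with TPA, and without TPA replicate 2, 3 were wider (5.14%) and 5 narrower (31.6%). At the start of the gene record CDKN1A was open in 3 libraries and BBC3 in 4, so neither could be compared there. Width depends on whether neighboring regions were joined by the caller, and the part of read depth in these widths was not tested.

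Nearly all p53 target genes were open at the start, with or without treatment. In control 30 and 31 of the 32 start sites were open, against 31 and 31 in the TPA libraries and 31 and 27 in the ZnCl2 libraries. Over all protein-coding genes the share was 50.5% and 60.8% in control, 54.5% and 56.5% for TPA and 59.6% and 46.3% for ZnCl2. The lowest count for the members came from the library with the shortest list. Open in all 6 libraries were 27 members (84.4%, against 43% of all genes), and 1 member (3.12%, against 36.9%) was open in none.

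**Figure D2:**
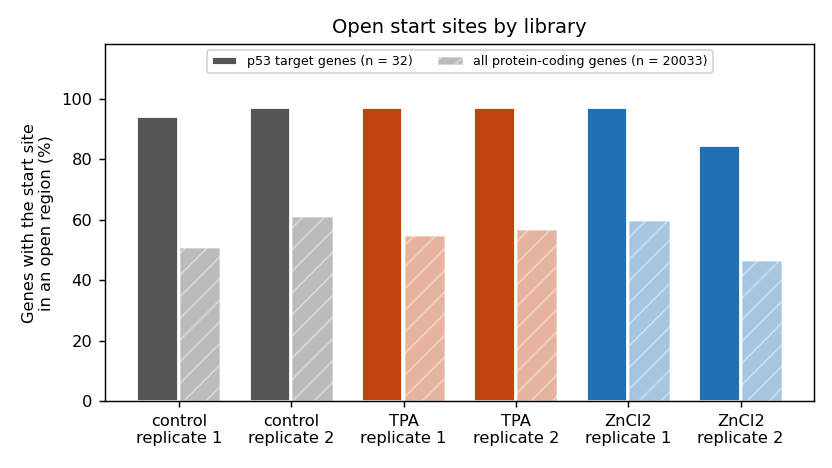
Percentage of start sites inside an open region in each library, for the 32 p53 target genes (solid bars) and all 20033 protein-coding genes (hatched bars). The members range from 84.4% to 96.9% and all genes from 46.3% to 60.8%.

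The start sequences of the members were only slightly richer in GC than those of other genes. The median GC content of the 1000 bp centered on the start was 64.5% over the 32 members, from 54.6% to 75.6%, and 61.3% over all genes. Among genes open in all 6 libraries the medians were 64.6% for members and 64.3% for all genes, and the median ratio of observed to expected CpG was 0.807 and 0.802. A divergent protein-coding start within 1000 bp was present for 15.6% of members and 12.3% of all genes, and among those open in all 6 libraries for 14.8% and 21.2%.

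In rank, the 27 members open throughout lay close to other open genes. Their median list percentile was 79.9 and 87.5 in control, 81.5 and 84.9 with TPA and 84.7 and 77.1 with ZnCl2. Over all 8613 genes open throughout it was 74.5 and 86.4, 76.9 and 81, and 83.8 and 68 in the same order. Medians of the members differed from control by -0.529 percentage points for TPA and -2.82 for ZnCl2, less than the pooled SD between replicates of 4.14 and 5.37 points (n = 2 and 2). As gene percentile the members had medians of 81.6 and 78.3 in control, 80.7 and 80.8 with TPA and 78.2 and 83 with ZnCl2, against 76.8 to 77.7 for all genes in the 6 libraries.

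**Figure D3:**
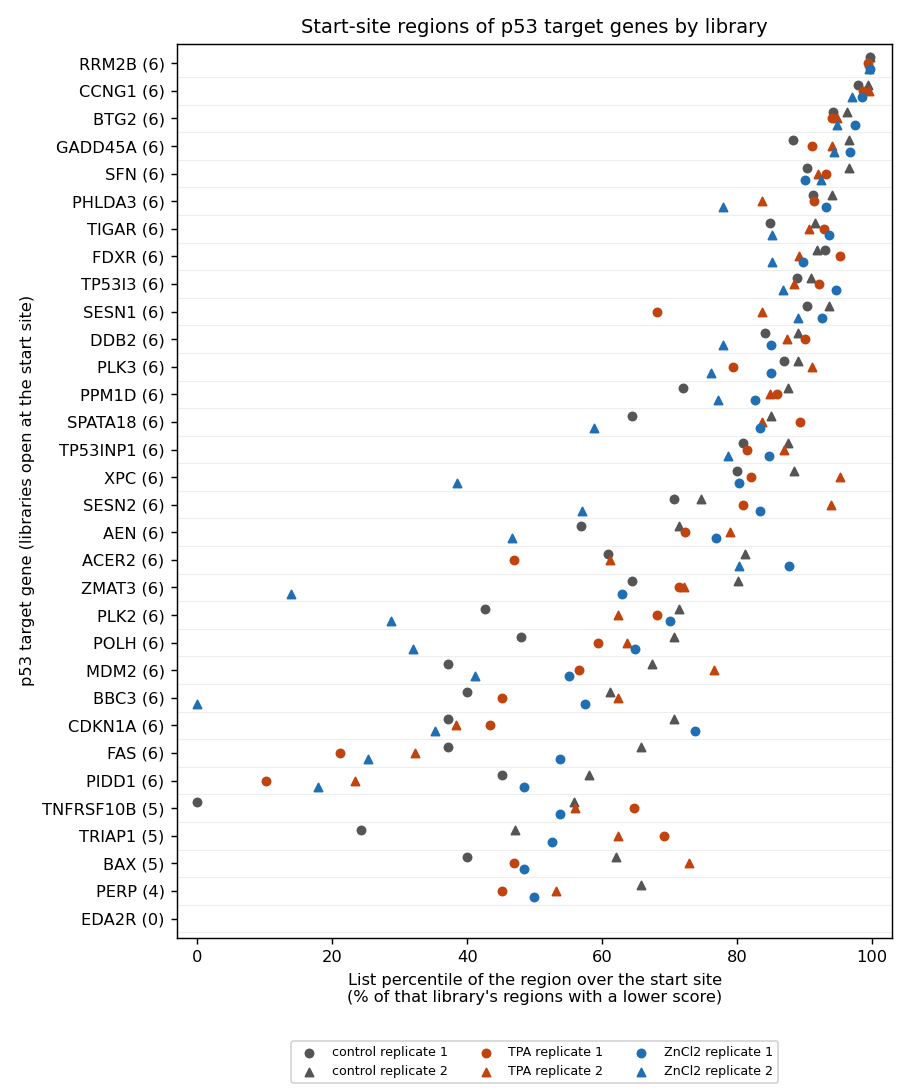
List percentile of the region over the start site of each p53 target gene (horizontal axis, percent of regions in the library with a lower score), 1 point per library, gray for control, orange for TPA and blue for ZnCl2, with circles for replicate 1 and triangles for replicate 2. RRM2B and CCNG1 sit at 97 or above in all libraries, while CDKN1A, FAS, PIDD1 and BBC3 are low and spread widely, and EDA2R has no point.

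No member passed the test on the list percentile. With Benjamini-Hochberg adjustment at 0.05, limma called 0 of 8613 genes (0%) for TPA against control, 0 (0%) for ZnCl2 against control and 0 (0%) for TPA against ZnCl2. At an unadjusted p under 0.05 there were 518, 101 and 640 genes, of which 1, 0 and 1 were members. On the gene percentile limma called 169 genes (1.96%), 0 genes (0%) and 851 genes (9.88%), of which 0, 0 and 2 were members. The pair called between TPA and ZnCl2 was ACER2 and ZMAT3.

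Counts of members whose libraries did not overlap stayed near those of all genes. On the list percentile, both TPA libraries lay above both control libraries for 2 of 27 members (10.3% of all genes) and below them for 4 (23.8%). Both ZnCl2 libraries lay above control for 0 members (2.54%) and below it for 3 (13.3%). Members closed in any library were left out of these counts, also where both control and both TPA libraries were open. When ZnCl2 replicate 2 was dropped, 4 of 30 members were above control with TPA (11.4%) and 4 below (22.3%). TRIAP1 and TNFRSF10B were then among those above. With the gene percentile the counts over the 27 members were 8 above (23.7%) and 7 below (27%) with TPA, and 7 above (22.7%) and 3 below (18.9%) with ZnCl2. Those above with TPA were MDM2, SESN2, TIGAR, PLK2, AEN, POLH, PPM1D and SPATA18. Those below with TPA were CDKN1A, FAS, SESN1, RRM2B, BTG2, PIDD1 and ACER2. With ZnCl2, CDKN1A, GADD45A, TIGAR, RRM2B, BTG2, TP53I3 and ACER2 were above and ZMAT3, XPC and CCNG1 below. The 2 treatments share the control libraries, so their counts are not independent. The counts on the list percentile depended on which library was left out. Leaving out a library of either group compared sets 1 library against 2, so fewer values need to be separate. Without control replicate 2, 17 members were above control with TPA (53.4% of all genes open in the same libraries) and 6 with ZnCl2 (32.8%). Without control replicate 1, 15 were below it with TPA (66.2%) and 18 with ZnCl2 (63.1%). Leaving out ZnCl2 replicate 1 put 20 members below control with ZnCl2 (66%), and leaving out ZnCl2 replicate 2 put 10 of 30 above it (34%). Without TPA replicate 1, 7 were above control with TPA (25.2%) and 7 below (30.5%), and without TPA replicate 2 the counts were again 7 (17.8%) and 7 (39.4%).

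The cell cycle arrest genes CDKN1A, GADD45A, SFN, BTG2, PLK2 and PLK3 were open at the start in all 6 libraries. CDKN1A was among the lower ranked, with list percentiles of 37.1 and 70.6 in control, 43.4 and 38.3 with TPA and 73.7 and 35.2 with ZnCl2. Its groups overlapped on this scale. On the gene percentile CDKN1A stood at 58.8 and 60.2 in control, 57.3 and 52 with TPA and 66.6 and 63.1 with ZnCl2. All 3 groups were separate, with TPA lowest. The difference between TPA and ZnCl2 was -10.2 points (95% interval -17.5 to -3) and missed the threshold in limma (adjusted p = 0.085). The wider region of CDKN1A with TPA thus came with no higher rank.

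GADD45A, a stress protein that slows the cell cycle and aids repair, ranked high, at 88.2 and 96.6 in control, 91.1 and 94.1 with TPA and 96.7 and 94.4 with ZnCl2. Its libraries overlapped on the list percentile, and on the gene percentile both ZnCl2 values (95.3 and 95.8) lay above control (88.6 and 94). SFN, an adaptor that keeps cyclin B1 and CDK1 in the cytoplasm and marks epithelial cells, had list percentiles of 90.4 and 96.6 in control, 93.1 and 92 with TPA and 90.1 and 92.4 with ZnCl2. Its groups overlapped as well. The ChIP-qPCR amplicon of the study at SFN, chr1:26862044-26862150, lies 1052 bp upstream of the start. It was inside the start region in all 6 libraries, with no consensus site of the searched form within it. From read counts in the p53 ChIP peak there, the study reported significantly increased accessibility with TPA. That measure differs from the rank of the whole start region used here. BTG2, an antiproliferative protein, kept list percentiles from 94.1 to 97.5. PLK3, a polo-like kinase of the stress response, stood at 87 and 89 in control, 79.3 and 91.1 with TPA and 85 and 76.1 with ZnCl2, below control in both ZnCl2 libraries, with a mean difference of -7.44 points (95% interval -23.9 to 9). Its groups overlapped on the gene percentile. PLK2, the related kinase, ranged from 28.7 to 71.3.

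The feedback genes MDM2, PPM1D and CCNG1 were also open throughout. MDM2 encodes the ubiquitin ligase that drives degradation of p53. Its list percentiles were 37.1 and 67.4 in control, 56.6 and 76.5 with TPA and 55 and 41.2 with ZnCl2, and the groups overlapped. Among all genes MDM2 stood at 58.8 and 57.8 in control, 63.9 and 73 with TPA and 54 and 65.1 with ZnCl2. Both TPA libraries were above control and the ZnCl2 libraries were on either side of it. Neither difference passed limma on either scale. PPM1D, a phosphatase that acts on p53 and its kinases, behaved in the same way on the gene percentile, at 76 and 78.3 in control and 84.7 and 80.8 with TPA. CCNG1, cyclin G1, was among the highest ranked members, with list percentiles of 97.9 and 99.4 in control, 98.6 and 99.5 with TPA and 98.5 and 97 with ZnCl2. Its start region held the first of its 2 sites in all 6 libraries and the second in control replicate 2 alone.

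Of the 9 genes that act in cell death within the cell, 6 were open at the start in all 6 libraries. BBC3 had list percentiles of 39.9 and 61.2 in control, 45.1 and 62.4 with TPA and 57.5 and 0 in the ZnCl2 libraries. The 0 stands for the lowest score of that list. BAX, which forms pores in the outer mitochondrial membrane, was open in 5 libraries, at 39.9 and 62.1 in control, 46.9 and 72.9 with TPA and 48.4 in ZnCl2 replicate 1, and was not open in ZnCl2 replicate 2. The groups of both genes overlapped where they could be compared. AEN, a nuclease that promotes DNA fragmentation, was higher with TPA in both libraries, at 72.2 and 79 against 56.8 and 71.3 in control, and stood at 76.8 and 46.6 with ZnCl2. The mean difference was 11.6 points (95% interval -21.2 to 44.3, limma adjusted p = 1), and both TPA libraries were also above control on the gene percentile (73.5 and 75.3 against 67.3 and 60.9).

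PIDD1, the scaffold of a caspase-activating complex, had the largest list percentile difference below control with TPA at the canonical start. Its list percentiles were 45.1 and 58 in control, 10.1 and 23.3 with TPA and 48.4 and 17.9 in the ZnCl2 libraries. The scores behind the TPA values were 33 and 38, near the lowest score of 30, against 43 and 61 in control. The mean difference between TPA and control was -34.9 points (95% interval -68.9 to -0.913), which limma gave an unadjusted p = 0.0462 and an adjusted p = 0.811. The direction depends on the start site used. The start of the PIDD1 gene record, 4522 bp away, lies in another region, which stood at 70.7 and 83.7 in control, 80 and 90.4 with TPA and 78 and 68 with ZnCl2, a TPA difference of 7.98 points with overlapping groups. At the canonical start TPA was below control in both libraries on the gene percentile as well, at 47.3 and 47.6 against 62.1 and 52.6. On that scale the difference was -9.86 points for PIDD1 and larger for SESN1, at -14.2.

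ZMAT3, a zinc-finger RNA-binding protein that regulates splicing, had the largest difference below control with ZnCl2. Its list percentiles were 64.4 and 80.1 in control, 71.3 and 72.1 with TPA and 62.9 and 13.9 in the ZnCl2 libraries. The mean difference of -33.9 points rests on ZnCl2 replicate 2, the shortest list, and did not pass limma (95% interval -82.2 to 14.4, adjusted p = 1). On the gene percentile, which is taken over genes and not over the list, ZMAT3 stood at 71.5 and 69.1 in control, 72.9 and 69.5 with TPA and 58.6 and 56.9 with ZnCl2. Both ZnCl2 libraries were then below all others, and TPA was 13.4 points above ZnCl2 (95% interval 7.24 to 19.6, limma adjusted p = 0.0377). Against control the ZnCl2 difference was -12.5 points and was not called.

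PHLDA3, an inhibitor of AKT, and TP53INP1, a stress protein of death and autophagy, ranged from 77.9 to 94 and from 78.7 to 87.5 with overlapping groups. TRIAP1, a mitochondrial inhibitor of apoptosis whose start region also covers the start of GATC, was open in 5 libraries, at 24.2 and 47 in control, 69.2 and 62.4 with TPA and 52.5 in ZnCl2 replicate 1. With TPA it lay above control in both libraries. PERP, a membrane protein of desmosomes, was open in 4, at 65.7 in control replicate 2, 45.1 and 53.2 with TPA and 49.9 in ZnCl2 replicate 1. Each of BAX, TRIAP1, PERP and TNFRSF10B was closed in ZnCl2 replicate 2, and PERP was also closed in control replicate 1, the libraries with the 2 shortest lists.

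At the canonical start, the death receptor genes were the least open of the roles. FAS, the receptor of FAS ligand, was open in all 6 libraries, at 37.1 and 65.7 in control, 21.2 and 32.2 with TPA and 53.8 and 25.3 with ZnCl2. Both TPA libraries were below control, with a mean difference of -24.7 points (95% interval -64.2 to 14.9, limma adjusted p = 1). The gene percentile was likewise lower, at 50 and 50 against 58.8 and 56.7. The start region of FAS also covers a start of ACTA2 on the opposite strand, so its score belongs to both genes, and the start of the FAS gene record, 36985 bp away, was open in no library. TNFRSF10B, a receptor of TRAIL, was open in 5 libraries, at 0 and 55.8 in control, 64.7 and 56 with TPA and 53.8 in ZnCl2 replicate 1. Both TPA values were above both control values, though 56 is close to 55.8. EDA2R, a receptor of ectodysplasin, was not open at the canonical start in any library. A short region ended between 88 and 122 bp upstream of it in 5 libraries, all but ZnCl2 replicate 1. The start of the EDA2R gene record, 220 bp away, was open in the same 5 libraries. Its list percentiles were 9.08 and 36 in control, 26.3 and 23.3 with TPA and 0 in ZnCl2 replicate 2.

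All 4 genes of DNA repair and nucleotide supply were open throughout. RRM2B, a subunit of ribonucleotide reductase that p53 induces, was the highest ranked member, at 99.6 and 99.7 in control, 99.4 and 99.5 with TPA and 99.7 and 99.5 with ZnCl2. TPA lay below control in both libraries, with a mean difference of -0.205 points (95% interval -9.17 to 8.76). That interval draws on the spread of all genes tested. It is far wider than the replicate SDs of RRM2B, 0.0317 in control and 0.0571 with TPA. XPC, which recognizes damage in nucleotide excision repair and shares its start region with LSM3, had list percentiles of 79.9 and 88.4 in control, 82.1 and 95.2 with TPA and 80.2 and 38.5 with ZnCl2. Its gene percentile was below control in both ZnCl2 libraries, at 72.9 and 64.1 against 81.6 and 79.8, and TPA minus ZnCl2 was 18.8 points (95% interval 5.9 to 31.7, limma adjusted p = 0.0797). DDB2, its partner in damage recognition, ranged from 77.9 to 90.1. POLH, a translesion polymerase whose start region also covers XPO5, ranged from 32 to 70.6. Both had overlapping groups on the list percentile. On the gene percentile both TPA values of POLH (65.4 and 63.7) lay above control (63.2 and 60.2), without a call in limma.

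Among the 7 genes of metabolism and redox, the 2 sestrins, which restrain mTORC1, lay on opposite sides of control with TPA. SESN2 stood at 70.7 and 74.7 in control, 80.8 and 93.9 with TPA and 83.4 and 57 with ZnCl2. SESN1, whose start region also covers CEP57L1, stood at 90.4 and 93.6 in control, 68.1 and 83.6 with TPA and 92.5 and 89 in the ZnCl2 libraries. The TPA difference from control was 14.6 points for SESN2 (95% interval -14.3 to 43.5) and -16.1 points for SESN1 (95% interval -33.6 to 1.35), with limma adjusted p-values of 1 and 0.89. The directions were the same on the gene percentile, at 80 and 91.7 against 75.1 and 63.8 for SESN2 and at 70.6 and 79.7 against 90.5 and 88.3 for SESN1.

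ACER2, an alkaline ceramidase of the Golgi, separated TPA from ZnCl2 most clearly. Its list percentiles were 60.8 and 81.1 in control, 46.9 and 61.1 with TPA and 87.6 and 80.3 with ZnCl2, with an overlap between each treatment and control. On the gene percentile ACER2 stood at 69.3 and 70.1 in control, 58.8 and 62.2 with TPA and 81.9 and 85 with ZnCl2, with all 3 groups separate. TPA minus ZnCl2 was -23 points (95% interval -29.3 to -16.7, limma adjusted p = 0.0221). Neither treatment was called against control on this scale.

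**Figure D4:**
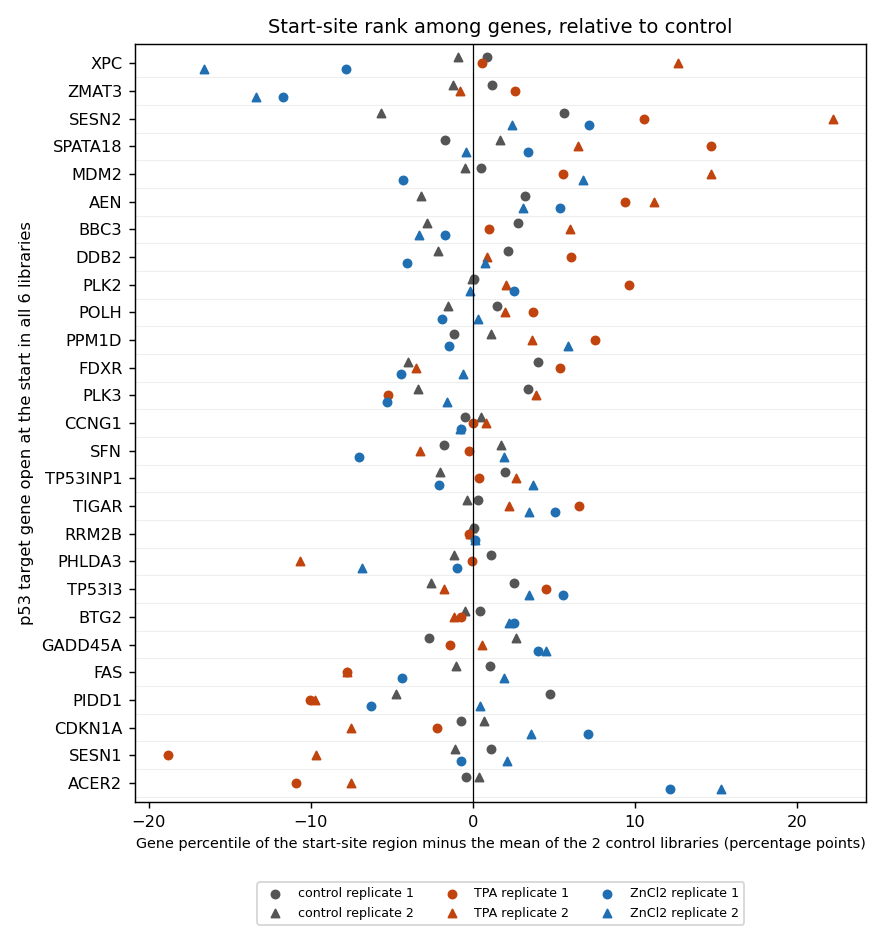
Gene percentile of the start-site region minus the mean of the 2 control libraries, in percentage points, for the 27 p53 target genes open in all 6 libraries, 1 point per library, colored by group and shaped by replicate. Genes are ordered by the difference between TPA and ZnCl2, with XPC and ZMAT3 at the top, where the ZnCl2 points lie below 0, and ACER2 at the bottom, where TPA and ZnCl2 lie on opposite sides of 0.

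FDXR, the ferredoxin reductase of mitochondria, had list percentiles of 93 and 91.8 in control, 95.3 and 89.2 with TPA and 89.8 and 85.1 with ZnCl2. Both ZnCl2 libraries were below control, with a mean difference of -4.89 points (95% interval -16.3 to 6.56), but not on the gene percentile. SPATA18, which acts in mitochondrial quality control, stood at 64.4 and 85 in control, 89.3 and 83.6 with TPA and 83.4 and 58.8 with ZnCl2. Its groups overlapped on the list percentile. On the gene percentile both TPA values of SPATA18 (87.9 and 79.7) lay above control (71.5 and 74.9), without a call in limma. TIGAR, which lowers glycolytic flux, ranged from 84.9 to 93.6, and TP53I3, a quinone oxidoreductase, from 86.8 to 94.7.

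Away from the start sites, the windows of 27 members held 53 regions after merging over libraries, of which 19 were open in all 6 libraries and 10 in 1. Region counts in the 32 windows summed to 65 and 78 in control, 73 and 81 with TPA and 73 and 51 with ZnCl2, and the median per gene was 2 in each library except ZnCl2 replicate 2, where it was 1. A region downstream of SPATA18, chr4:52102351-52103160, was the only one of the 53 to be open in both TPA libraries and neither control library (2.02% of such regions over all genes). It was weak, with list percentiles of 13.1 and 9.73. The reverse held for a region upstream of the canonical start of TIGAR, chr12:4307531-4309330 (0.947% of all). It spans the outermost start of the TIGAR gene record and was at 42.6 and 62.1 in control and 67.5 and 48.9 with ZnCl2. A region upstream of CCNG1, chr5:163434081-163435010, was open in both control libraries and neither ZnCl2 library (1.57%), at 0 and 36 in control and 12.6 in TPA replicate 2, and 0 regions showed the reverse (0.164%).

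Regulators of p53 and further p53 targets were compared on the list percentile, where limma called no gene. Of 25 regulators of p53, 17 were open at the start in all 6 libraries, 1 of which (ATR) was above control in both TPA libraries (5.88%, against 10.3% of all genes) and 5 below (29.4%, against 23.8%), namely EP300, KAT5, TP53BP2, PPP1R13B and PPP1R13L. With ZnCl2 0 were above control (0%, against 2.54%) and 5 below (29.4%, against 13.3%), namely CREBBP, TP53BP2, PPP1R13L, RCHY1 and COP1. Of 24 further p53 targets, 20 were open in all 6 libraries, with 3 (15%) above control with TPA (ATF3, ANKRA2 and BLOC1S2) and 3 (15%) below (GLS2, SUSD6 and CYFIP2). SUSD6, a target known to slow growth, stood at 80.8 and 87.5 in control, 56.6 and 53.2 with TPA and 80.6 and 71.8 with ZnCl2, and did not pass limma. With ZnCl2 0 of the 20 (0%) were above control and 2 (10%), SUSD6 and ANKRA2, were below.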

How the data were processed

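ATAC-seq reads of 6 MCF10A libraries were processed by the authors, who removed adapters (BBDuk), aligned the pairs against hg38 (HISAT2 2.1.0 per the labels, which also name SAMtools 1.8 and FastQC 0.11.8) and annotated open regions library by library (HMMRATAC). The deposited lists hold positions and a whole-number score per region. The kind of score is not given in the sources used here, and it served for ranks and, in 1 alternative, as its log2. Read depth is unknown. Runs of a library had been combined before calling, and blacklisted regions were not removed here.

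Between 72 and 203 regions per library on contigs other than the assembled chromosomes were left out. Start sites and windows came from GENCODE release 44 on hg38, and 8613 genes with an open start in all 6 libraries were tested with limma 3.58.1 in R 4.3.3, 3 groups of 2 libraries sharing 1 estimate of the spread, two-sided, with Benjamini-Hochberg adjustment over all genes. Differences are treated minus control, in percentage points. Sequences were read with pysam 0.24.0. The procedures were tested on simulated data.

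The members and the lists were chosen with earlier results of these data known. Values per library were given for CDKN1A and SFN, for MDM2, BBC3, BAX, FAS and GADD45A, for the 3 largest differences in each direction among members whose libraries did not overlap, for the 2 highest and 2 lowest medians, for members open in fewer than 6 libraries and for those with a consensus site in an open region. ACER2, XPC, PPM1D and SUSD6, the widths of the start regions and the regions away from starts were singled out after their values were seen. Alternatives were an equal number of regions per list, the upper 50% by score, the gene percentile, the gene record start, promoter overlap, other windows, the log2 of the score, all genes open in at least 1 library, leaving out each library and the replicate number as a block. One gene of the list of p53 regulators is not reported here.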

Additional observations from a re-analysis of the deposited data

How the results depend on the processing

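The 3 counts of called genes were 0 with the upper 50% of regions by score, the gene record start, either promoter overlap, genes open in at least 1 library and each library left out. With an equal number of regions per list limma called 272 genes for TPA against control and 486 for TPA against ZnCl2. On the gene percentile these counts were 169 and 851, and on the log2 score 649 and 1747, with 6 for ZnCl2 against control. For TPA against ZnCl2 the log2 score called 5 of 27 members (SESN1, RRM2B, ZMAT3, XPC and ACER2), where it called 1747 of all 8613 genes. No member was called against control under any of these settings. The cause of the differences was not tested.

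With an equal number of regions, 7 of 22 members were lower with TPA (35.1% of all genes compared) and 5 higher with ZnCl2 (21.4%). In the upper 50% by score, 16 members were open in all 6 libraries, 1 was higher (11.8%) and 2 were lower (23.4%) with TPA, and the median number of regions with TPA differed by -0.25. On the gene percentile 8 members were higher (23.7%) and 7 lower (27%) with TPA and 7 higher with ZnCl2 (22.7%). The gene record start gave 2 of 22 lower (23.4%) and 0 wider (1.83%) with TPA, and a 50% promoter overlap 1 of 23 higher (10.9%). The median number of regions differed by 0.5 with TPA in windows of 50000 bp and by 0 with ZnCl2 over gene bodies.

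Leaving out a library of either group compared sets 1 library against 2, so that fewer values need to be separate. In parentheses is the share of all genes that goes with the largest count. The counts ranged from 2 to 17 higher (53.4%) and 4 to 15 lower (66.2%) with TPA. With ZnCl2 they ranged from 0 to 10 higher (34%) and 3 to 20 lower (66%). For width the counts ranged from 2 to 19 wider (56%) and 2 to 22 narrower (87.4%) with TPA. With ZnCl2 they ranged from 3 to 22 wider (81.9%) and 0 to 17 narrower (55.4%). The members' median percentile difference ranged from -4.32 to 3.26 with TPA and from -6.63 to 4.63 with ZnCl2. It turned positive without control replicate 2 for both treatments, at 3.26 and 0.962, without TPA replicate 1 for TPA, at 1.16, and without ZnCl2 replicate 2, at 3.03 for TPA and 4.63 for ZnCl2. It was also positive for TPA in the upper 50% by score (1.14), at the gene record start (0.344) and on the gene percentile (0.821), and for ZnCl2 on the gene percentile (0.621). With ZnCl2 the median number of regions differed by -1 without ZnCl2 replicate 1 and by 0 without ZnCl2 replicate 2. Between 27 and 30 members were open in all libraries left.

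With the replicate number as a block, limma called 0 genes in all 3 comparisons, and the members' medians were -0.529 and -2.82. Deviations of libraries with the same number correlated at 0.17 for control and TPA, -0.46 for control and ZnCl2 and -0.134 for TPA and ZnCl2. On the log2 score these correlations were 0.116, 0.00281 and -0.00681. Whether libraries with the same number were prepared together cannot be told from these values, as the lists also differ in length. A block with the ZnCl2 numbers exchanged, added after seeing the data, also called 0 genes in each comparison. Read depth is unknown, and its part in these values was not tested.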
